A study of Homo sapiens with 18 samples.

Results

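Jagged1 was put back into Jagged1 knockout cells, and the mRNA of these add-back cells was compared with that of the knockout cells that had received no plasmid. The comparison rested on 6 of the 18 libraries of the study, 3 of Jag1KO + rescue and 3 of Jag1KO, and on the 12835 of 21411 genes that exceeded 1 CPM (read counts scaled to the TMM-adjusted library size) in at least 3 of these 6 libraries. All cells derive from MDA-MB-231, an established line of triple-negative breast cancer (TNBC), and were grown for 7 days as spheroids in Matrigel (2 mg/ml) from 50000 cells. Jag1WT is the parental line. Jag1KO is a blend of single-cell clones in which Cas9 had cut exon 2 of JAG1 and which had been sorted on GFP from the Cas9 plasmid, so that Jag1KO, Jag1KO + rescue and Jag1KO + ctrl all share this editing and sorting history. Jag1KO + rescue cells carried a pcDNA3.1 plasmid with Jagged1 cDNA, Jag1KO + ctrl cells carried the empty plasmid, and both were kept in G418. Jag1KO cells carried neither the plasmid nor the drug, and Jagged1, plasmid and G418 therefore cannot be told apart in Jag1KO + rescue against Jag1KO. For this reason the values of the Jag1KO + ctrl libraries are given beside the results. In siCtrl and siJag1, parental cells had received a nontargeting siRNA or siRNA against Jagged1. The study calls the 3 samples of a group biological replicates and states of its experiments in general that they were repeated independently. The labels do not tie a library to a culture, and the p-values measure the spread between these samples.

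Jagged1, the protein of JAG1, is a ligand on the cell surface that activates Notch receptors on neighbouring cells. Proteases then cut the bound receptor, its intracellular domain enters the nucleus, and together with the DNA-binding protein RBPJ it switches on targets such as HES1, a transcriptional repressor. In breast cancer the ligand is known for the basal and triple-negative subtypes.

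The libraries held between 10330581 and 18327890 reads on genes, and no pair of replicates was a copy, since the chi-square of their counts over genes, divided by its degrees of freedom, was 8.88 to 60.6 within both groups. Markers of the line were present in all 6 libraries, among them VIM, CD44, ZEB1, EGFR and KRT18, and ESR1, the estrogen receptor gene, lay between 0 and 0.136 CPM. The progesterone receptor gene PGR and the E-cadherin gene CDH1 reached 1.77 and 1.16 CPM in Jag1KO + rescue replicate 1 and at most 0.176 and 0.191 CPM in the other libraries. The other receptor and luminal markers looked at, ERBB2, EPCAM and CD24, passed the filter. Their mean level on the log2(CPM + 1) scale was 3.95 to 4.19 in Jag1KO + rescue and 4.08 to 4.53 in Jag1KO. Of 15 markers of fibroblasts, leukocytes and endothelial cells, 4 passed the filter (COL1A1, CD14, KDR and PECAM1), and their mean level on the log2(CPM + 1) scale was 2.28 to 2.73 in Jag1KO + rescue and 2.36 to 2.79 in Jag1KO. Replicates did not behave alike in their cell cycle genes. Jag1KO replicate 1 had a mean level of 4.06 over 54 genes of G2 and mitosis, while Jag1KO replicates 2 and 3 had 6.01 and 6.09 on the same log2(CPM + 1) scale. Among the empty-vector libraries, replicate 3 stood apart from replicates 1 and 2, with 4.67 against 6.11 and 6.55 in the same genes. Since these are bulk samples, fewer cells of a kind and less RNA per cell cannot be told apart.

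JAG1 mRNA, the transcript that the plasmid supplies, was above the knockout level in every add-back library. Its level (Entrez gene 182, chr20:10637684-10673999 in GRCh38.p14) was 534, 657 and 646 CPM in Jag1KO + rescue and 116, 205 and 149 CPM in Jag1KO. The groups did not overlap, and the lowest add-back library lay well above the highest knockout library. The mean of 612 ± 67.9 CPM (SD, n = 3) in Jag1KO + rescue was 119% of the Jag1WT mean of 513 ± 76.7 CPM (n = 3), whereas Jag1KO, at 157 ± 45.1 CPM (n = 3), kept 30.5% of it. The Jag1KO value corresponds to 1559 to 2654 reads per library, so the edited gene was still transcribed. Reads from the cDNA and from the genomic locus are counted together here. The empty-vector cells had 110, 134 and 147 CPM, within or below the range of Jag1KO. The log2 fold change of JAG1 in Jag1KO + rescue over Jag1KO was 1.95 (SE 0.216), but with 3 libraries against 3 its FDR in the edgeR quasi-likelihood test was 0.0604, above the limit of 0.05. This call depended on the method. The limma test on log2(CPM + 1) gave an FDR of 0.0331 and DESeq2 gave 2.61e-14.

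**Figure D1:**
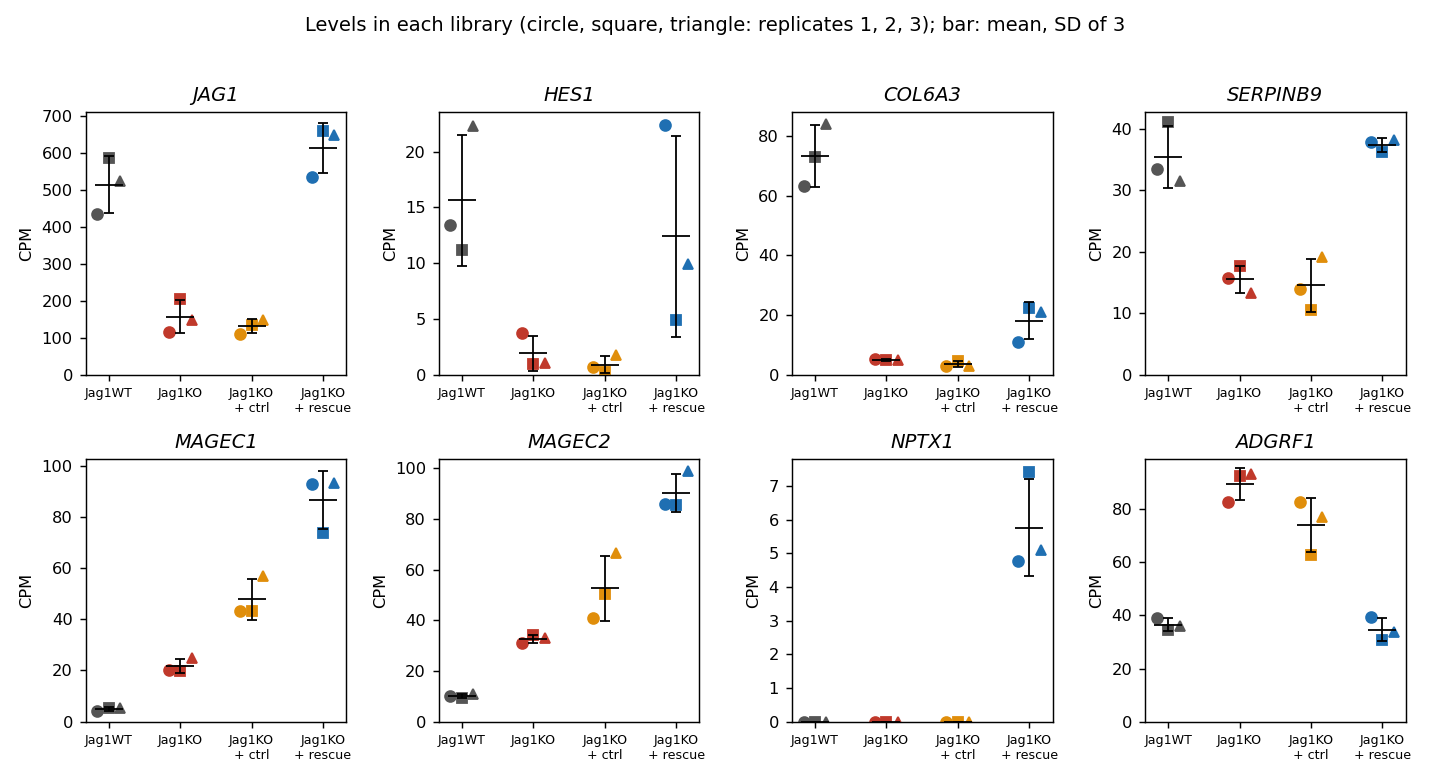
CPM of 8 genes in each library of the parental line, the knockout, the empty-vector cells and the add-back cells (circle, square and triangle for replicates 1, 2 and 3, bar for mean and SD of 3), with each vertical axis starting at 0. JAG1, HES1, COL6A3 and SERPINB9 lay higher in all add-back than in all knockout libraries, MAGEC1 and MAGEC2 were lowest in the parental line and highest in the add-back, NPTX1 was read only in the add-back among these 12 libraries, and the add-back mean of ADGRF1 was near the parental mean.

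In the Notch pathway, HES1 was the target with the largest difference, and the glycosyltransferase LFNG was the member furthest in the other direction. Of 49 genes on the Notch list, 36 passed the filter and 13 did not. Of the 36, 0 passed the edgeR test, which over all genes called 0.0234% higher and 0.00779% lower. Without overlap of the groups, 8 had add-back values all above the knockout values and 3 all below. Over all 12835 genes, 12% did not overlap and were higher and 9.59% did not overlap and were lower. The median log2 fold change of the 36 genes was 0.10, and that of all genes tested was -0.01. The median thus lay close to that of all genes, while 8 of 36 is a larger share than 12%. Mean log2(CPM + 1) of the 36 genes was 5.31, 5.24 and 5.28 with the add-back and 5.22, 5.08 and 5.07 in the knockout. These list means did not overlap, and the list includes JAG1, which the plasmid supplies.

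HES1 (chr3:194136148-194138732) was at 22.4, 4.88 and 9.97 CPM in Jag1KO + rescue and at 3.72, 0.927 and 1.05 CPM in Jag1KO. The groups did not overlap, although the spread within each was wide, with replicate 1 the highest in both. The log2 fold change was 2.64 (SE 0.696, edgeR FDR 0.221), and it ranged from 1.90 to 3.62 when any single library was left out. The add-back mean was 79.5% of the Jag1WT mean of 15.6 ± 5.88 CPM (n = 3), and the Jag1KO mean was 12.1% of it. In the empty-vector cells HES1 was at 0.659, 0.24 and 1.74 CPM, and all 3 values lay below all 3 of the add-back.

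The promoter of HES1 is shown because it is the best known landing site of the Notch complex. The 250 bases before the RefSeq start (GRCh38.p14, chr3:194135898-194136147, plus strand) hold the RBPJ core TGGGAA, in capitals, at 2 places that begin 84 and 70 bases before the start.
HES1: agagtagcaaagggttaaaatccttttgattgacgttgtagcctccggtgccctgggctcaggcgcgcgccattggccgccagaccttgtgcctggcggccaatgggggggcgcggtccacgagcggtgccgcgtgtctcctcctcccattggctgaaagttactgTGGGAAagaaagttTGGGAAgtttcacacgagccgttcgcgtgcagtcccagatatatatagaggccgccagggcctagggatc
The core was searched on both strands. At least 1 match is present in 21.1% of the 27305 genes with a promoter sequence and at least 2 in 2.92%. Among the 31 tested Notch members with a sequence, 5 hold the core (DTX2, HES1, HES4, POGLUT1 and PSENEN), and HES1 is the one with 2 matches. Such a match is a description of the letters and not evidence of binding.

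Of the other ligands, JAG2 was at 1.77, 1.06 and 1.29 CPM in Jag1KO + rescue and at 1.76, 1.39 and 1.91 CPM in Jag1KO, with overlapping groups. DLL1, DLL3 and DLL4 did not pass the filter, and DLL3 had reads in 1 of the 6 libraries. Per kilobase of transcript, JAG1 stood at 102 ± 11.3 CPM per kb in the add-back cells and JAG2 at 0.235 ± 0.0622 (n = 3 each), so JAG1 was by far the more abundant ligand on this length-corrected scale of levels. Among the receptors NOTCH2 was at 506, 483 and 510 CPM with the add-back and at 415, 415 and 401 CPM without it. These groups did not overlap and each was narrow. The log2 fold change of NOTCH2 was 0.27 (SE 0.1, edgeR FDR 0.266). NOTCH1 was at 86.2, 47.2 and 58.7 CPM against 82.1, 46.4 and 50.2 CPM, and replicate 1 was the highest in both groups. NOTCH3 did not pass the filter. Per kilobase, the level of NOTCH2 was 40.3 ± 1.18 CPM per kb in the add-back cells and that of NOTCH1 was 6.89 ± 2.16 (n = 3 each).

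LFNG, one of the Fringe enzymes that add sugars to Notch and alter which ligand it answers to, was at 2.04, 2.62 and 2.46 CPM in Jag1KO + rescue and at 8.29, 5.02 and 3.92 CPM in Jag1KO. The groups did not overlap, and the log2 fold change was -1.30 (SE 0.326, edgeR FDR 0.212). A further Fringe gene, RFNG, was at 14.2, 16 and 14.2 CPM against 21.1, 21.3 and 19.8 CPM (log2 fold change -0.51). Both Fringe genes were thus lower in all 3 add-back libraries. HES6, which counteracts HES1, was also lower without overlap, at 0.681, 1.2 and 1.06 CPM against 1.63, 3.09 and 2.2 CPM. Higher without overlap were NUMB (log2 fold change 0.30), which promotes the removal of Notch, the ubiquitin ligase gene ITCH (0.27), the Notch and MYC degradation factor FBXW7 (0.15), the gamma-secretase subunit NCSTN (0.25) and the target MYC (0.35). The targets HEY1 and HES4 overlapped between the groups, with log2 fold changes of 0.06 and -0.20. HES5 had no read in any of the 6 libraries.

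Across all genes, 4 passed the edgeR test with an FDR below 0.05 and a fold change above 1.5. NPTX1, MAGEC1 and MAGEC2 rose in Jag1KO + rescue (3 of 12835 genes, 0.0234%), and ADGRF1 fell (1 gene, 0.00779%). Before adjustment, 1117 genes had p below 0.05 and were higher (8.7%) and 1041 were lower (8.11%), in all 2158 genes, where 642 would pass if no gene differed. With other methods the counts were between 2 and 357 higher and between 1 and 734 lower, the upper ends with the replicate number as a block. With a library left out, the number of genes with p below 0.05 in the edgeR test ranged from 865 to 3608. Genes move together between libraries, as the cell cycle genes did, so the excess over 642 does not measure how many genes differed. Which genes are called beyond these 4 depended on the method.

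NPTX1, a secreted pentraxin known from synapses, was read 70, 105 and 87 times in the 3 Jag1KO + rescue libraries (4.77, 7.42 and 5.1 CPM) and 0 times in the 3 Jag1KO libraries. It was also listed at 0 in all 3 Jag1KO + ctrl and all 3 Jag1WT libraries. Taking 3 reads in each Jag1KO library as the limit that a count of 0 allows, its level was at least 24.2-fold higher with the add-back (edgeR FDR 0.0495). With no read in Jag1KO, the gene passed the filter of 1 CPM in 3 libraries only through the add-back group in which it is high, and its test rests on that selection. Its call was lost without Jag1KO replicate 2 or Jag1KO replicate 3 (FDR 0.140 and 0.179), and it did not pass the filter when an add-back library was left out.

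MAGEC1 and MAGEC2 are cancer-testis antigens, a class of proteins made in the testis and in tumors. MAGEC1 was at 92.6, 73.5 and 93.4 CPM in Jag1KO + rescue and at 20.3, 19.8 and 24.7 CPM in Jag1KO, with a log2 fold change of 1.98 (SE 0.155, edgeR FDR 0.0160). For MAGEC2 the values were 86.1, 85.8 and 99.1 CPM against 30.9, 34.1 and 33.1 CPM, and its log2 fold change was 1.45 (SE 0.118, edgeR FDR 0.0160). Neither gene had overlapping groups, and the replicates within a group were close. The empty-vector cells lay between, with 43.2, 43.1 and 56.9 CPM of MAGEC1 and 41, 50.6 and 66.5 CPM of MAGEC2. The parental line had the least, 4.23, 5.26 and 5.35 CPM and 10.2, 9.47 and 10.8 CPM. For these genes the add-back therefore lay further from the parental line than the knockout did, at 1749% of the Jag1WT mean for MAGEC1 and 890% for MAGEC2, against 437% and 322% in Jag1KO. With any single library removed, MAGEC1 kept its call in 3 of 6 cases and lost it without Jag1KO + rescue replicate 3, Jag1KO replicate 2 or Jag1KO replicate 3 (FDR 0.234, 0.111 and 0.111). MAGEC2 was lost without these 3 (FDR 0.234, 0.111 and 0.179) and without Jag1KO + rescue replicate 2 (0.0544).

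Both genes lie on the X chromosome, MAGEC1 at chrX:141903894-141909374 and MAGEC2 at chrX:142202342-142205290. Their promoters are printed because both genes rose. RefSeq (GRCh38.p14) gives the 250 bases before each start, chrX:141903644-141903893, plus strand for MAGEC1 and chrX:142205291-142205540, minus strand for MAGEC2. Capitals mark the runs of at least 12 bases that both sequences share, 85 bases in each.
MAGEC1: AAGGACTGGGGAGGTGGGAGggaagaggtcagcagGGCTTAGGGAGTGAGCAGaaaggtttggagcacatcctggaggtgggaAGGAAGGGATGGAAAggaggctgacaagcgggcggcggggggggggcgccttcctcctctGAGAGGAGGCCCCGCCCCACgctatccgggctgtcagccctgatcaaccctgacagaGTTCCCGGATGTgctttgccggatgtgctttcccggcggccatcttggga
MAGEC2: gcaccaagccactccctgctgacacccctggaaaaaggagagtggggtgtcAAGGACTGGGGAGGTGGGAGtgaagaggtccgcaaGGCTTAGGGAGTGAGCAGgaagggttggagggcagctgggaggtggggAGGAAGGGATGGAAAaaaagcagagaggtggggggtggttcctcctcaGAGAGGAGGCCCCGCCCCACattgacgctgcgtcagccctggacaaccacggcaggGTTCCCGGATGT
The windows share 5 such runs in the same order, and they hold 11 and 6 CpG pairs. Reads of such related genes can be hard to assign, so the split of counts between paralogs is uncertain.

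The other cancer-testis genes on the table were looked at as a list that was drawn up after the calls had been seen and is a description only. Outside MAGEC1 and MAGEC2, 0 of them passed the edgeR test. Of 63 genes of the MAGE, PAGE, XAGE, SPANX, SSX and similar families, 15 passed the filter and 2, MAGEC1 and MAGEC2, passed the edgeR test. Of the 15, 8 were higher and 1 was lower without overlap (12% and 9.59% over all genes), and the median log2 fold change was 0.59. Their mean level on the log2(CPM + 1) scale was 5.37, 5.18 and 5.25 in the add-back and 4.49, 4.65 and 4.68 in the knockout, and the groups did not overlap. It was 4.85, 4.93 and 4.93 in the empty-vector libraries and 3.74, 3.98 and 3.82 in Jag1WT. PAGE5 was at 28.5, 31.2 and 30.2 CPM against 12.1, 11.7 and 14 CPM (log2 fold change 1.23, edgeR FDR 0.0715), and SPANXB1 was at 544, 428 and 442 CPM against 256, 287 and 307 CPM (0.71, SE 0.138). XAGE2 was the member lower without overlap, at 1.64, 2.54 and 2.29 CPM against 4.18, 3.32 and 3.06 CPM. SPANXA1 and SPANXA2, MAGEA3 and MAGEA6, and XAGE1A and XAGE1B are near copies whose counts may be split. The list was also separated with the empty plasmid over the same Jag1KO libraries. There, 9 of 15 tested members were higher and 3 lower without overlap, beside 6.04% and 4.04% over all genes.

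ADGRF1, an adhesion G protein-coupled receptor, was at 39.4, 30.9 and 33.8 CPM in Jag1KO + rescue and at 82.7, 92.5 and 93.4 CPM in Jag1KO. All add-back libraries lay below all knockout libraries, and the gene fell by 1.39 on the log2 scale (SE 0.133, edgeR FDR 0.0344). The Jag1WT values were 39.1, 34.4 and 36.2 CPM, and the add-back mean was 95% of their mean, although the add-back values spread more widely to both sides. The empty-vector values of 82.6, 62.8 and 76.9 CPM all lay above both. The call was lost without Jag1KO + rescue replicates 2 or 3 and Jag1KO replicates 2 or 3, each left out alone, with an FDR between 0.107 and 0.559. Close to the threshold was SERPINB9, an inhibitor of granzyme B, with 37.8, 36.2 and 38.2 CPM in Jag1KO + rescue and 15.7, 17.7 and 13.3 CPM in Jag1KO (log2 fold change 1.24, SE 0.151, edgeR FDR 0.0715). These groups did not overlap. The Jag1WT values were 33.5, 41.2 and 31.6 CPM and the empty-vector values 13.9, 10.5 and 19.1 CPM, so that SERPINB9 had its parental level with the add-back and its knockout level with the empty plasmid.

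Further genes lower without overlap that missed the threshold were the transcriptional regulator gene IRF2BPL (log2 fold change -0.73, edgeR FDR 0.136), the potassium channel gene KCNN3 (-1.03, FDR 0.136), the microtubule protein gene EML1 (-1.36, FDR 0.137), the lipid enzyme gene GPAT2 (-1.36, FDR 0.189) and GAS6 (-0.71, FDR 0.189), a ligand of the TAM receptor kinases. KCNN3 was at 16.4, 18.1 and 14.9 CPM with the add-back, 30.9, 37 and 31.8 CPM in the knockout and 20.3, 16.4 and 18.2 CPM with the empty plasmid. In this gene the empty-vector cells were near the add-back cells, unlike in ADGRF1. IRF2BPL was at 51, 48.6 and 49.8 CPM with the add-back, 84.2, 76.2 and 83.4 CPM in the knockout and 87.4, 77.7 and 88.1 CPM with the empty plasmid, and here the empty-vector cells were near the knockout.

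Genes of protein folding in the endoplasmic reticulum (ER) and cytosol lay mostly higher with the add-back, although 0 of the list's members passed the edgeR test. Of 30 chaperone genes, all of which passed the filter, 29 had a positive log2 fold change, 16 were higher without overlap and 0 lower. Their median was 0.55, beside -0.01 over all genes, and 23 had an unadjusted p below 0.05 and were higher. Over all genes, 49.0% were positive, 12% were higher without overlap, 9.59% were lower without overlap and 8.7% had such a p and were higher. The mean level of the 30 genes was 8.74, 8.21 and 8.69 on the log2(CPM + 1) scale with the add-back and 8.22, 7.64 and 7.73 in the knockout, so the lowest add-back library lay just below the highest knockout library, Jag1KO replicate 1.

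**Figure D2:**
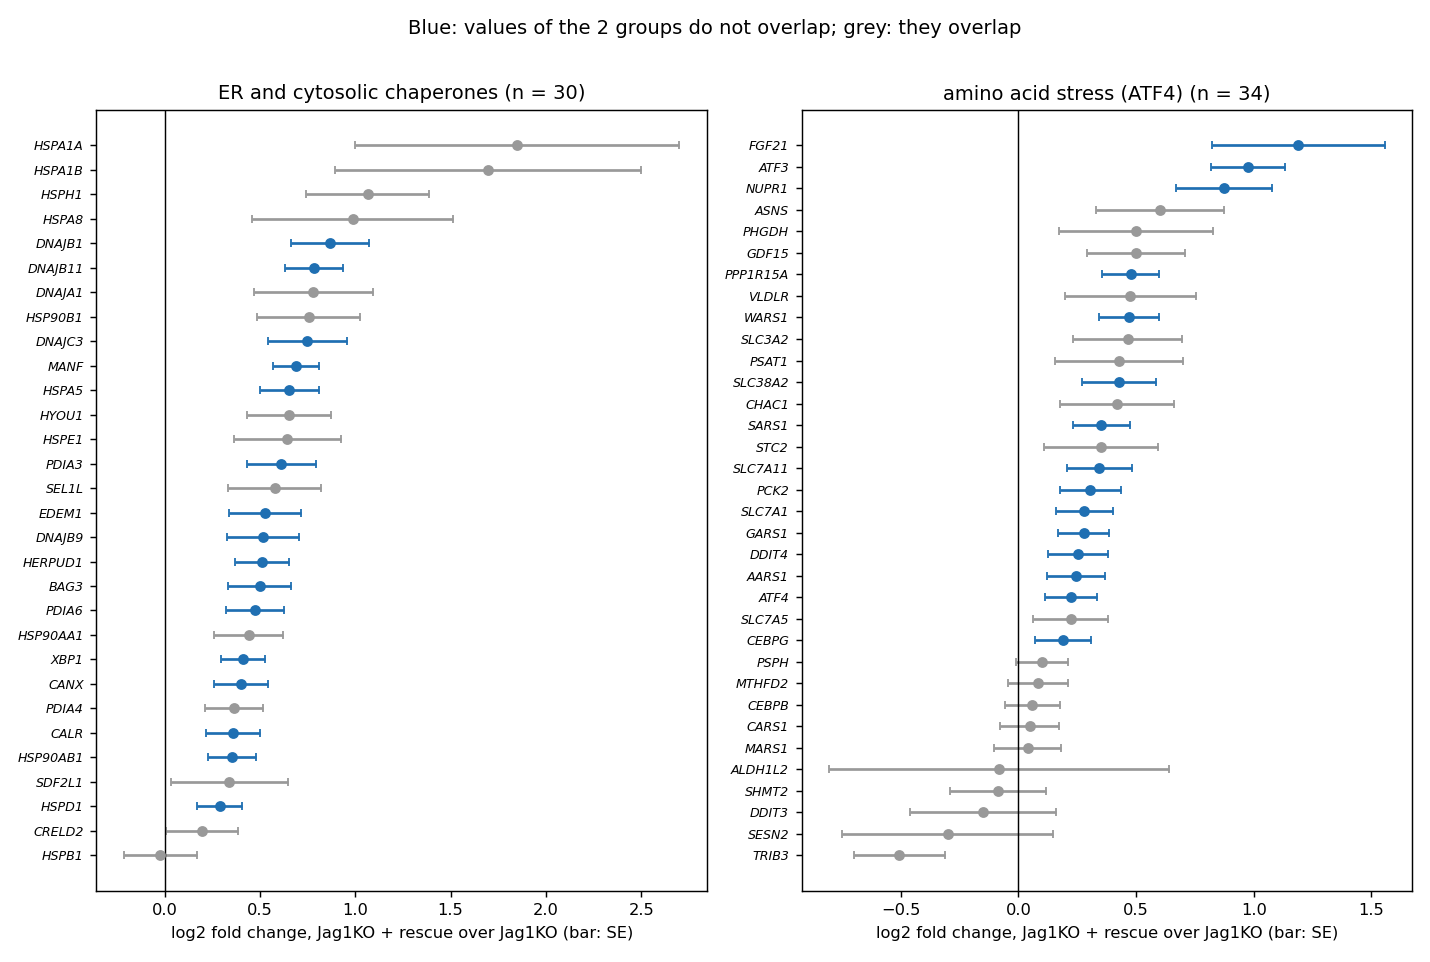
Log2 fold change with SE of each of 30 chaperone genes (left) and 34 genes of the amino acid stress response driven by ATF4 (right), Jag1KO + rescue over Jag1KO, with members whose groups did not overlap in blue. The chaperone genes lay right of 0 except HSPB1, and TRIB3 was the lowest of the ATF4 genes.

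MANF, a secreted ER stress protein, had the lowest p of the list and was at 236, 208 and 219 CPM in Jag1KO + rescue and at 153, 124 and 128 CPM in Jag1KO (log2 fold change 0.69, SE 0.123, edgeR FDR 0.189). DNAJB11, a co-chaperone of the ER, was at 143, 111 and 129 CPM against 86.1, 64.7 and 68.5 CPM (0.78, SE 0.151). The groups of both genes were apart, with replicate 1 highest in each. HSPA5, the main ER chaperone BiP, was at 4003, 3542 and 4319 CPM against 2906, 2330 and 2199 CPM (0.65, SE 0.154, edgeR FDR 0.209). XBP1, a transcription factor of the unfolded protein response, was at 389, 369 and 433 CPM against 290, 317 and 275 CPM (0.41, SE 0.115), and the lectin chaperone gene CANX at 3853, 3423 and 4031 CPM against 3230, 2579 and 2635 CPM (0.40, SE 0.143). None of these groups overlapped. In the empty-vector cells HSPA5 was at 1914, 1355 and 3743 CPM and XBP1 at 140, 112 and 339 CPM, with replicate 3 far above the other two.

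Several of these genes carry the ER stress response element, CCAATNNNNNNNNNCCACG, in the 250 bases before their start. It was found on either strand in 6 of the 29 chaperone genes with a sequence and in 22 of all 27305 genes (0.0806%). Among all tested genes with a sequence, 14 of 10172 held it (0.138%). The 6 chaperone genes were CALR, CANX, CRELD2, HSP90B1, HSPA5 and XBP1. Of these CALR, CANX, HSPA5 and XBP1 did not overlap between the groups, and CRELD2 and HSP90B1 did. The windows of the 3 genes given above (RefSeq, GRCh38.p14) are shown with the element in capitals, HSPA5 at chr9:125241344-125241593, minus strand, CANX at chr5:179698679-179698928, plus strand and XBP1 at chr22:28800570-28800819, minus strand.
HSPA5: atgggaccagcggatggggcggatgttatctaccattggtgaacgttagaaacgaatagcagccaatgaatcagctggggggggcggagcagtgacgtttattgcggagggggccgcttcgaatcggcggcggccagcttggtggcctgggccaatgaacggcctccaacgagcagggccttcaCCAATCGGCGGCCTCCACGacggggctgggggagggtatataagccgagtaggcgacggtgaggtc
CANX: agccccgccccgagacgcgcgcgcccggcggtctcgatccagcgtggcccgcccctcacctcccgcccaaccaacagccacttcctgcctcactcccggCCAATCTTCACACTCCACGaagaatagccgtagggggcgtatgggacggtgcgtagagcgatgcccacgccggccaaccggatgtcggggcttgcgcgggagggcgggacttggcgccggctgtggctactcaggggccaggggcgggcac
XBP1: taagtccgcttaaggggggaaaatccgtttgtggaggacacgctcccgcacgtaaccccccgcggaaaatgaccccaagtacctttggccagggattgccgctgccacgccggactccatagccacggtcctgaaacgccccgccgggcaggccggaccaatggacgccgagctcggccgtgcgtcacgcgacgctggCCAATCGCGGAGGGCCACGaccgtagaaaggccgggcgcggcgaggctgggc
The element begins 66, 151 and 52 bases before the start of HSPA5, CANX and XBP1. As for HES1, a match describes the letters and is not evidence of binding.

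Heat shock genes, a list drawn up after their values had been seen, held some of the largest single differences. Of 69 genes of the HSP and DNAJ families, 58 passed the filter, 21 were higher without overlap and 1 lower, and the median log2 fold change was 0.25. The shares over all genes were 12% higher and 9.59% lower. HSPA6, a heat shock gene that is nearly silent in unstressed cells, was at 34.4, 14.1 and 38.7 CPM in Jag1KO + rescue and at 2.67, 0.0772 and 0.0955 CPM in Jag1KO, where it had 41, 1 and 1 reads. The groups did not overlap, and the log2 fold change was 4.78 (SE 0.912, edgeR FDR 0.198). Its near copy HSPA7 showed 2.52, 1.13 and 3.69 CPM against 0.0652, 0 and 0 CPM, and reads of the pair may be misassigned. HSPA7 exceeded 1 CPM only in the add-back libraries, and HSPA6 only in these and in Jag1KO replicate 1. Both passed the filter through the group in which they are high, and their tests rest on that selection. With the empty plasmid HSPA6 was at 5.1, 1.26 and 27.3 CPM, and in Jag1WT it lay between 0.301 and 0.391 CPM. HSPA1A, at 841, 286 and 791 CPM against 420, 44 and 59.8 CPM, overlapped between the groups because of Jag1KO replicate 1, and it cannot be fully told from its copy HSPA1B.

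HSPB8, a small heat shock protein of chaperone-assisted autophagy, was at 6.2, 4.1 and 7.03 CPM in Jag1KO + rescue and at 1.17, 0.618 and 1.53 CPM in Jag1KO (log2 fold change 2.37, SE 0.379, edgeR FDR 0.177). With the empty plasmid it was at 0.839, 1.14 and 1.74 CPM and in Jag1WT at 1.07, 0.601 and 0.261 CPM. The add-back libraries were thus the 3 highest of these 12. Its promoter window (chr12:119178681-119178930, plus strand, RefSeq, GRCh38.p14) is printed because it holds a pair of heat shock half-sites, GAANNTTC, in capitals, 88 bases before the start.
HSPB8: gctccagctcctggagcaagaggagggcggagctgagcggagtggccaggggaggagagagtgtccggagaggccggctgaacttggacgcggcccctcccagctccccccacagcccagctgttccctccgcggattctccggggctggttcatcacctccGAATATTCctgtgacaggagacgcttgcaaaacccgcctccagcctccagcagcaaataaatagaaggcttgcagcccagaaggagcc
The pair of half-sites, which reads alike on both strands, was present in 9 of the 53 heat shock genes with a sequence and in 5.85% of all genes with one. Here too a match is not evidence of binding.

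Genes of the amino acid stress response, which the factor ATF4 drives, showed small differences in the same direction. Of 34 genes, all of which passed the filter, 29 had a positive log2 fold change, 15 were higher without overlap, 0 were lower without overlap and 0 passed the edgeR test. The median was 0.29, beside -0.01 over all genes, of which 49.0% were positive, 12% higher without overlap and 9.59% lower without overlap. ATF3 was at 134, 103 and 155 CPM in Jag1KO + rescue and at 70.1, 64 and 62.2 CPM in Jag1KO (log2 fold change 0.97, SE 0.158, edgeR FDR 0.183). NUPR1, a small stress-induced chromatin protein, was at 153, 101 and 125 CPM against 85.3, 62.2 and 56.1 CPM (0.87). The exceptions were TRIB3, DDIT3, SESN2, SHMT2 and ALDH1L2, which had negative values, with TRIB3 at 136, 195 and 183 CPM against 193, 289 and 238 CPM. In this list the empty-vector libraries lay lower than both other groups with the exception of replicate 3. Their mean levels were 6.42, 5.98 and 7.62 on the log2(CPM + 1) scale, beside 7.74, 7.67 and 7.84 with the add-back and 7.49, 7.52 and 7.34 in the knockout.

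Immediate-early genes, a list also drawn up after the values had been seen, all had a positive log2 fold change (17 of 17, median 0.48), and 5 did not overlap. Over all genes, 49.0% were positive and 12% were higher without overlap. FOS, a subunit of the AP-1 factor, was at 23.6, 31.2 and 44.4 CPM with the add-back and at 8.74, 11 and 8.6 CPM in the knockout (log2 fold change 1.79, SE 0.253, edgeR FDR 0.118). FOSB was at 54.4, 39 and 75.9 CPM against 25.4, 14.1 and 13.2 CPM (1.66, SE 0.322). In the empty-vector cells FOS was at 6.65, 4.37 and 33.2 CPM and FOSB at 5.88, 4.55 and 55.5 CPM, so replicate 3 was near the add-back and the others were near or below the knockout.

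**Figure D3:**
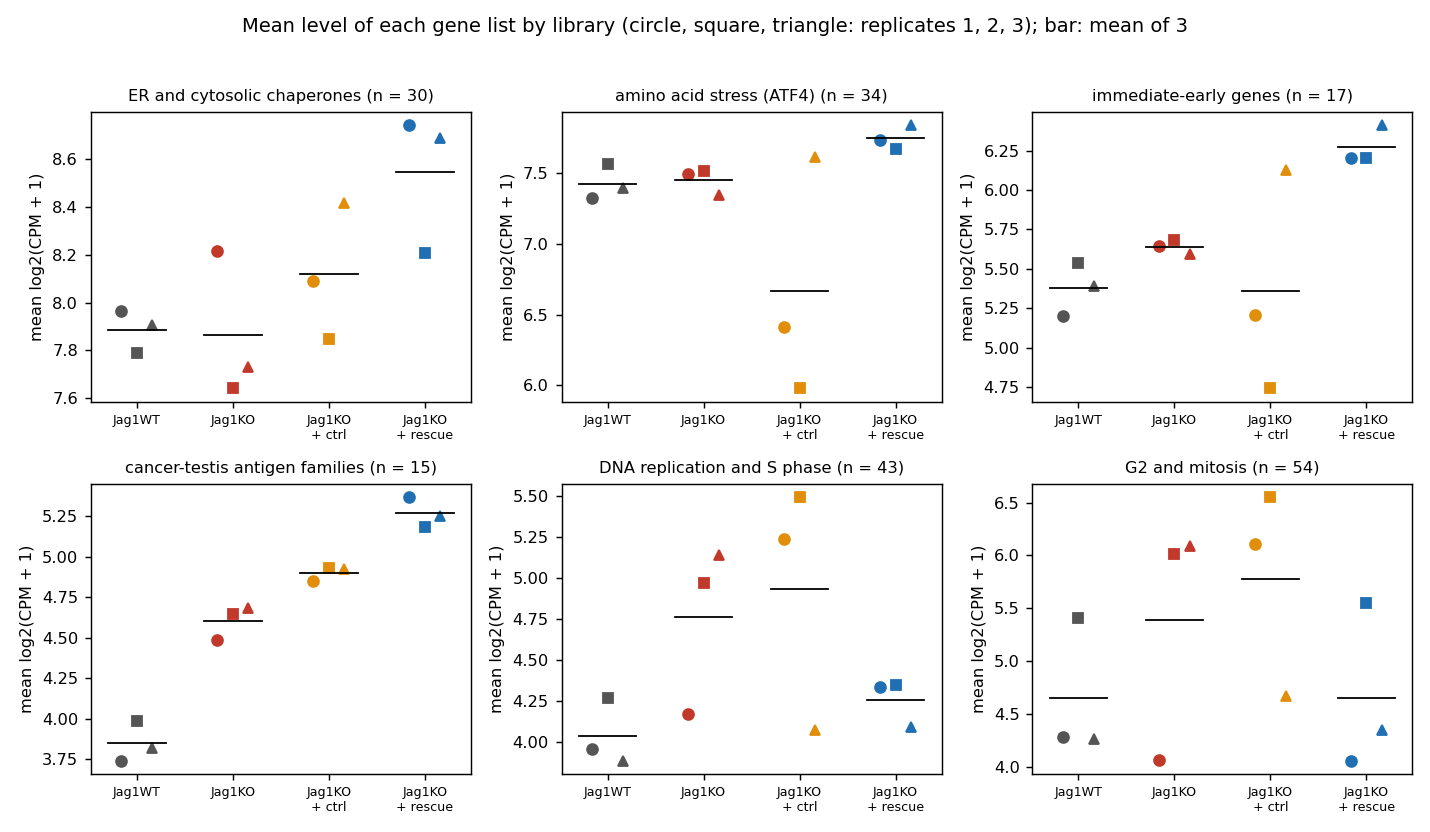
Mean level of 6 gene lists on the log2(CPM + 1) scale in each library of 4 groups (circle, square and triangle for replicates 1, 2 and 3, bar for the mean of 3). The vertical axes do not start at 0. The cancer-testis, immediate-early and ATF4 lists lay higher in all add-back than in all knockout libraries, the cell cycle lists separated Jag1KO replicate 1 from replicates 2 and 3, and empty-vector replicate 3 lay apart from replicates 1 and 2 in the ATF4, immediate-early and cell cycle panels.

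Genes of the cell cycle had lower medians with the add-back, and the size of this difference depended on single libraries. Of 43 genes of DNA replication and S phase, 38 had a negative log2 fold change, 8 were lower without overlap and 0 higher, and the median was -0.67. Unadjusted p was below 0.05 for 16 lower members and 1 higher member, and 0 passed the edgeR test. Over all genes, 8.11% had such a p and were lower, 8.7% had it and were higher, and 9.59% were lower without overlap. GMNN, the inhibitor of origin licensing geminin, was at 13.6, 13.3 and 13.3 CPM in Jag1KO + rescue and at 15.5, 28.7 and 33.9 CPM in Jag1KO (log2 fold change -0.98, SE 0.277, edgeR FDR 0.225). WDR76 was at 5.79, 4.81 and 4.57 CPM against 6.59, 12 and 14.5 CPM (-1.14). In both genes Jag1KO replicate 1 lay close to the add-back libraries. Of 54 genes of G2 and mitosis, 52 had a negative log2 fold change with a median of -0.96, yet 0 were free of overlap. The mean levels were 4.06, 5.55 and 4.35 with the add-back, 4.06, 6.01 and 6.09 in the knockout and 4.28, 5.41 and 4.26 in Jag1WT, on the log2(CPM + 1) scale. CDCA3, for example, was at 0.886, 5.02 and 1.52 CPM against 1.37, 11.7 and 12.3 CPM. Without Jag1KO replicate 1 the G2 and mitosis median was -1.38, and without Jag1KO replicate 3 it was -0.59. It moved to -1.73 without Jag1KO + rescue replicate 2. The direction was therefore the same in each of these fits and its size depended on which library was included.

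The study asks how Jagged1 bears on the extracellular matrix. In the edgeR test, which called 0.0234% of all genes higher and 0.00779% lower, 0 genes of the matrix lists passed. This depended on the method. The collagen gene COL6A3 had an FDR of 1.05e-05 with DESeq2 and 0.181 with limma on log2(CPM + 1). For the laminin gene LAMA3 the FDR was 0.00218 with DESeq2 and 0.185 with the same limma test. Single members differed in both directions without overlap of the groups. Of 38 collagen genes 19 passed the filter, with 2 higher and 1 lower without overlap and a median log2 fold change of -0.26. These counts are no larger a share than the 12% and 9.59% over all genes. COL6A3, a chain of the beaded-filament collagen VI, was at 11, 22.5 and 21 CPM in Jag1KO + rescue and at 5.22, 4.79 and 4.87 CPM in Jag1KO (log2 fold change 1.85, SE 0.291, edgeR FDR 0.175). The groups did not overlap. The add-back mean was 24.7% of the Jag1WT mean of 73.3 ± 10.4 CPM (n = 3), the knockout mean was 6.76% of it, and the empty-vector values were 3.06, 4.55 and 2.95 CPM. The level of COL6A3 thus lay between knockout and parental line. COL6A1, another chain of the same collagen, was lower without overlap, at 20.8, 20.9 and 20.6 CPM against 42.1, 27.9 and 31.3 CPM (-0.72, SE 0.179, edgeR FDR 0.212), while Jag1WT had 45.9, 51.2 and 66.4 CPM. The 2 chains therefore had opposite directions. COL5A1, a chain of fibrillar collagen V, was the other collagen gene higher without overlap (log2 fold change 0.18).

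In the basement membrane list 4 of the 11 tested genes were lower and 1 higher without overlap (9.59% and 12% over all genes), with a median of -0.13. The median was 0.03 without Jag1KO + rescue replicate 1 and -0.35 without Jag1KO + rescue replicate 2, so its direction rested on a single library. LAMA3, a chain of laminin-332, was at 87, 105 and 100 CPM in Jag1KO + rescue and at 148, 141 and 170 CPM in Jag1KO (log2 fold change -0.67, SE 0.127, edgeR FDR 0.198). AGRN, the proteoglycan agrin, was at 169, 253 and 209 CPM against 361, 343 and 382 CPM (-0.80, SE 0.161, FDR 0.204). The proteoglycan gene HSPG2 (-1.07) and LAMA5 (-0.75) were the other lower genes. For LAMA3 the empty-vector values of 204, 181 and 143 CPM and the Jag1WT values of 163, 144 and 171 CPM all lay above the add-back values.

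Of 23 matricellular and other matrix genes, 3 were higher and 3 lower without overlap (median -0.12, and 0.07 without Jag1KO + rescue replicate 1). The shares over all genes were 12% higher and 9.59% lower. THBS2, a thrombospondin, was at 39.6, 23.9 and 33.4 CPM against 18.4, 13 and 11.3 CPM (log2 fold change 1.16, SE 0.25, edgeR FDR 0.206), and LTBP4, which holds latent TGFβ, at 62.7, 60.9 and 57.6 CPM against 84.5, 73.9 and 100 CPM (-0.53). Of 27 matrix proteases and inhibitors, 4 were higher and 1 lower without overlap (median 0.10, and -0.11 without Jag1KO + rescue replicate 2). ADAMTS1, a protease that cuts proteoglycans, was at 86.6, 71.3 and 80 CPM with the add-back and 51.1, 41.7 and 41.1 CPM in the knockout (0.81, SE 0.137, edgeR FDR 0.189), and its empty-vector values of 68.7, 73 and 67.7 CPM lay near those of the add-back. MMP10 was at 79.8, 78.8 and 168 CPM against 63.2, 22.8 and 25.2 CPM (1.53, SE 0.456), and the empty-vector libraries ranged from 2.34 to 113 CPM. Of 19 cross-linking and folding genes, 1 was higher and 1 lower without overlap (median 0.14). These were the collagen chaperone gene SERPINH1 (0.79) and the lysyl oxidase gene LOXL1 (-1.79), which was at 0.954, 0.707 and 1.23 CPM against 1.96, 3.71 and 4.39 CPM.

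Of 15 integrin genes, 1 was higher and 3 were lower without overlap (median -0.20, from -0.46 to -0.01 with a library left out). ITGB5 was at 91.6, 151 and 139 CPM in Jag1KO + rescue and at 165, 243 and 250 CPM in Jag1KO (log2 fold change -0.81, SE 0.23, edgeR FDR 0.225), ITGB8 at 0.818, 1.48 and 1.58 CPM against 1.96, 3.24 and 4.2 CPM (-1.27), and ITGA10 was the other lower gene (-1.21). In ITGB5 replicate 1 was the lowest in both groups. The higher gene was ITGB1 at 1607, 1603 and 1561 CPM against 1375, 1401 and 1393 CPM (0.18). Of 40 genes of the TGFβ family, 5 were higher and 1 lower without overlap, with a median of 0.08. These counts are near or below the shares over all genes, 12% higher and 9.59% lower. INHBA, which encodes an activin subunit, was at 161, 70.3 and 120 CPM against 63.5, 27 and 31.2 CPM (edgeR FDR 0.221), and the receptor gene TGFBR1 at 96.2, 93.5 and 113 CPM against 79.1, 61.2 and 54.5 CPM (0.62, SE 0.161). NOG, an extracellular inhibitor of bone morphogenetic proteins, was the lower gene (-0.63).

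**Figure D4:**
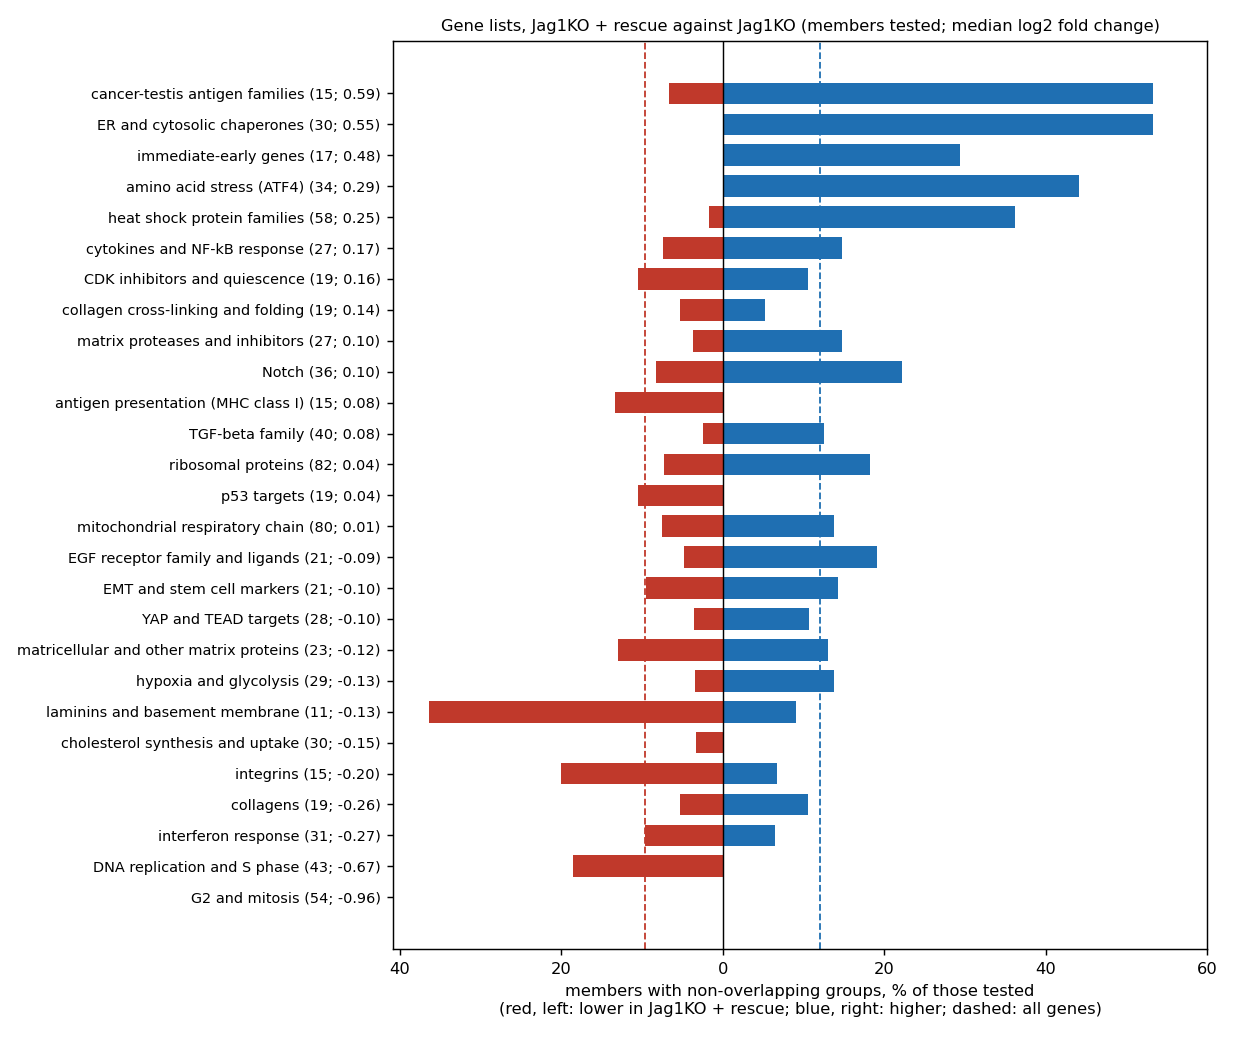
Share of the tested members of each gene list whose add-back values lay all above (blue, right) or all below (red, left) the knockout values, in percent, with the number tested and the median log2 fold change in brackets. Dashed lines mark the shares over all genes, 12% higher and 9.59% lower, and the cancer-testis, chaperone and ATF4 lists had the highest shares on the right.

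Secreted inflammatory factors included single members that were higher. Of 27 cytokine and NF-κB genes, 21 had a positive log2 fold change, 4 were higher and 2 lower without overlap, and the median was 0.17. The shares without overlap were near the 12% higher and 9.59% lower over all genes. IL24 was at 47.3, 63.4 and 47.3 CPM in Jag1KO + rescue and at 21.1, 18.2 and 13.8 CPM in Jag1KO (log2 fold change 1.55, SE 0.205, edgeR FDR 0.0915), with 7.97, 2.58 and 29.2 CPM in the empty-vector cells. CSF2, the growth factor GM-CSF, was at 135, 241 and 237 CPM against 121, 111 and 113 CPM (0.81), and IL11 and LIF, both of the IL-6 family, were the other genes higher without overlap (0.75 and 0.40). The macrophage growth factor gene CSF1 was lower, at 297, 511 and 498 CPM against 617, 613 and 787 CPM (-0.65). The median of this list was -0.11 without Jag1KO + rescue replicate 2, so that its direction rested on that library.

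In the other lists 0 members passed the edgeR test, which over all genes called 0.0234% higher and 0.00779% lower. Without overlap, 12% of all genes were higher and 9.59% lower, and the lists below lay on both sides of these shares. Of 31 interferon response genes, 2 were higher and 3 lower without overlap (median -0.27, from -0.46 to -0.05 with a library left out), with OAS2, an antiviral sensor, at 5.11, 6.65 and 6.62 CPM against 9.79, 11.2 and 13.3 CPM and IFI27 at 25.4, 22.1 and 29 CPM against 14.2, 15.2 and 14.6 CPM. The empty-vector values of IFI27, 23.9, 21.6 and 25.5 CPM, lay among those of the add-back. Of 29 genes of hypoxia and glycolysis 4 were higher and 1 lower (median -0.13, but 0.21 without Jag1KO + rescue replicate 1, 0.06 without Jag1KO replicate 2 and 0.10 without Jag1KO replicate 3), and of 30 genes of cholesterol synthesis and uptake 0 were higher and 1 lower (-0.15). The EMT and stem cell markers gave 3 higher and 2 lower of 21 (-0.10, and 0.02 without Jag1KO + rescue replicate 1), the YAP and TEAD targets 3 and 1 of 28 (-0.10), and the EGF receptor family and ligands 4 and 1 of 21 (-0.09). Of 19 p53 targets 0 were higher and 2 lower (0.04, and -0.02 without Jag1KO + rescue replicate 2 or without Jag1KO replicate 1), of 15 MHC class I genes 0 and 2 (0.08), and of 19 inhibitors of cyclin-dependent kinases and quiescence genes 2 and 2 (0.16). Ribosomal protein genes gave 15 higher and 6 lower of 82 (0.04) and genes of the mitochondrial respiratory chain 11 and 6 of 80 (0.01). The last median lay below 0 without Jag1KO + rescue replicate 1 (-0.03), Jag1KO + rescue replicate 2 or Jag1KO replicate 1 (-0.05) and with 1 dispersion over all 18 libraries.

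To set the plasmid beside these results, the empty-vector libraries were compared with the same Jag1KO libraries and with the same Jag1KO + rescue libraries. Because libraries are shared, the values stand side by side and no overlap between the comparisons was counted. In Jag1KO + ctrl against Jag1KO, 0 of 13004 genes passed the edgeR test (0%), 756 had an unadjusted p below 0.05, and DESeq2 called 13 and limma 0. Groups did not overlap in 6.04% of genes that were higher and 4.04% that were lower. Set against the empty-vector cells, the add-back cells had 1 gene of 12894 past the test (0.00776%), which was JAG1 (log2 fold change 2.22, SE 0.177, edgeR FDR 0.0227), and groups did not overlap in 16.5% of genes that were higher and 16% that were lower. Without empty-vector replicate 3 the calls numbered 302 in the first and 3659 in the second comparison.

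MAGEC1 had a log2 fold change of 1.13 with the empty plasmid over Jag1KO and 0.85 with the add-back over the empty plasmid, beside 1.98 for the add-back over Jag1KO. For HES1 these values were -1.15, 3.79 and 2.64, for SERPINB9 -0.11, 1.36 and 1.24, and for ADGRF1 -0.29, -1.10 and -1.39. The median of the chaperone list was 0.16 with the empty plasmid over Jag1KO and 0.40 with the add-back over the empty plasmid. For the cancer-testis list the medians were 0.31 and 0.46, and for the ATF4 list they were -0.58 and 0.87. For the chaperone and cancer-testis lists the empty-vector cells thus lay between the other two groups by their medians. How much of these differences goes with the plasmid or with G418 was not tested.

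Having Jagged1 was also compared between siCtrl and siJag1, which share no library with the add-back. In siCtrl against siJag1, 2 of 12823 genes passed the edgeR test (0.0156%), COL6A3 and the matrix gene LTBP3, and groups did not overlap in 5.15% of genes that were higher and 5.33% that were lower. JAG1 itself was not called there, although the 2 Notch ligands tested, JAG1 among them, were higher in siCtrl without overlap. COL6A3 was higher with more JAG1 in both comparisons, by 2.30 (SE 0.221, edgeR FDR 0.0482) in the siRNA comparison and 1.85 in the add-back. HES1 was at 12.7, 13.2 and 13.9 CPM in siCtrl and at 5.5, 3.3 and 4.48 CPM in siJag1, and SERPINB9 at 37.8, 46.3 and 34.6 CPM against 20, 17.9 and 17.4 CPM. Neither gene had overlapping groups (log2 fold changes 1.60 and 1.11, edgeR FDR 0.125 for each). ADGRF1 was at 41.1, 38.6 and 43.5 CPM in siCtrl and at 57.9, 76.1 and 68.2 CPM in siJag1, also without overlap (-0.71). MAGEC1, in contrast, was at 5.02, 5.4 and 5.48 CPM against 4.65, 4.6 and 6.5 CPM, with overlapping groups.

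Over the genes tested in both comparisons, the share with the same sign was similar among the genes without overlap and among all genes. Of 1508 genes higher without overlap in the add-back, 815 (54.0%) had a positive log2 fold change in siCtrl against siJag1, and of 1217 lower genes 649 (53.3%) had a negative one, beside 55.7% with the same sign among all 12617 genes. The median of the chaperone list was 0.09 in the siRNA comparison, that of the cancer-testis list 0.02 and that of the collagen list 0.43. The difference between the effects was tested as an interaction over 12 libraries, where 2 of 12794 genes passed (0.0156%). These were MAGEC1, whose difference was higher with the add-back, and COL6A1, which was lower without overlap with the add-back and higher without overlap in siCtrl, at 52.9, 67.2 and 53.5 CPM against 30.3, 23.7 and 29.2 CPM. The nearest to the threshold were MAGEC2 (edgeR FDR 0.0520), and INF2, COL18A1 and MED16 (0.0592 each).

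**Figure D5:**
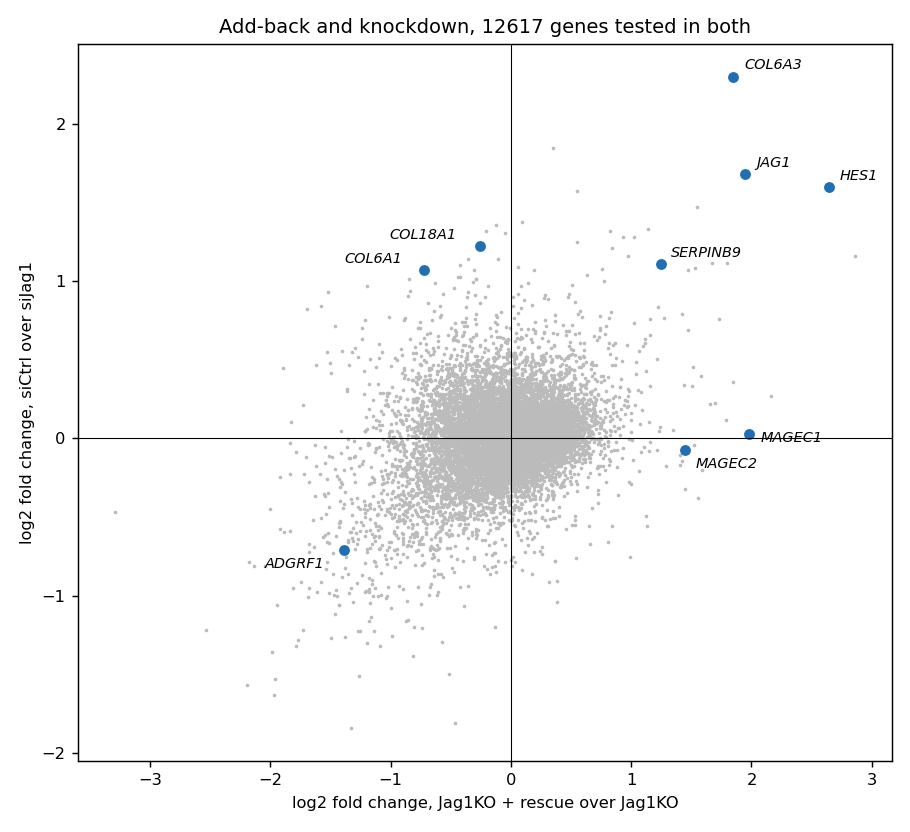
Log2 fold change of Jag1KO + rescue over Jag1KO (horizontal) and of siCtrl over siJag1 (vertical) for the 12617 genes tested in both, with named genes in blue. JAG1, HES1, COL6A3 and SERPINB9 lay in the upper right, ADGRF1 in the lower left, MAGEC1 and MAGEC2 near the horizontal axis at the right, and COL6A1 and COL18A1 in the upper left.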

How the data were processed

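Poly(A) RNA of MDA-MB-231 spheroids was sequenced from stranded libraries (TruSeq). The authors deposited read counts per gene for 18 libraries, 3 in each of 6 groups. The submitters' notes name featureCounts, edgeR 3.28.0, R 3.6.1, MultiQC 1.5 and the genome hg38. The study's methods count uniquely mapped reads, and the aligner is not given in the sources used here. The deposited CPM values are counts scaled to a TMM-adjusted library size, a normalized signal whose sum differs between libraries. The deposited RPKM values were used only to derive gene length, and 3 RPKM columns whose names match no label were left out. The 292 genes without a symbol took up to 0.0442% of the counts.

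Counts were tested with the quasi-likelihood test of edgeR 4.0.16 in R 4.3.3 (TMM, Benjamini-Hochberg adjustment). A gene was tested where 3 or more of the 6 libraries exceeded 1 CPM, and was called at an FDR below 0.05 and a fold change above 1.5. For the interaction this was 6 or more of 12 libraries. SE was the absolute log2 fold change over the root of F. The study's own test, ROTS, was not used here, and edgeR took its place. Groups without overlap are those in which every value of one lies above every value of the other, and an exact permutation test of 3 against 3 cannot give less than 0.1. A count of 0 was set to 3 reads per library for lower bounds, which cover counting error only. The fits were also run on simulated counts that had 1 dispersion for all genes and no shifts of single libraries. That run checks the code and does not bear on the differences between replicates seen here. Alternatives were limma 3.58.1 on log2(CPM + 1) and log2(CPM + 0.25), DESeq2 1.42.0, RLE factors, no filter, a filter of 5 CPM, the replicate number as a block, each library left out and, chosen after the data were seen, 1 dispersion over all 18 libraries. The rule named JAG1 and the tested Notch genes, the called genes with a mean above 5 CPM in the higher group (filled up to 6 a direction with genes without overlap and the lowest p), up to 2 members with the lowest p where a list had no call (otherwise up to 4 called members in the main direction and 2 in the other), and the 6 lowest FDRs of the interaction. Other genes were chosen after their values were seen. The members and lists were chosen with earlier results of these data known, and the cancer-testis, heat shock and immediate-early lists were added after the values had been seen. Promoter windows of 250 bases came from RefSeq (GRCh38.p14) and were searched with Python 3.11.15. Gene positions are those of the same RefSeq build.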

Additional observations from a re-analysis of the deposited data

Results flagged for a closer look

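In 2 genes the effect of the add-back differed from that of siCtrl over siJag1 by an interaction test (edgeR). For MAGEC1 the log2 fold change of the add-back exceeded that of the siRNA comparison by 1.95 (SE 0.232, FDR 0.0333). MAGEC1 was higher in 3 of 3 add-back libraries than in any knockout library, and its siRNA groups overlapped. For COL6A1 the difference was -1.80 (SE 0.231, FDR 0.0350), with all add-back libraries below all knockout libraries and all siCtrl libraries above all siJag1 libraries. The siRNA libraries carry no plasmid and had no G418, so that the kind of Jagged1 change, plasmid and drug cannot be told apart in either difference. The number of genes passing this test ranged from 0 to 4 when a library was left out.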

How the results depend on the processing

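For Jag1KO + rescue against Jag1KO, the calls of higher genes (3) numbered 107 with DESeq2, 15 without a filter, 357 with the replicate number as a block and 35 with all 18 libraries, and 0 to 5 with a library left out. The lower calls (1) numbered 131 with DESeq2, 734 with the block and 62 with all 18 libraries, and 0 to 2 with a library left out. JAG1 passed the threshold with limma (log2 fold change 1.99 and 2.00), DESeq2 (1.95), no filter (1.97), the block (1.98) and all 18 libraries (1.93), and had 1.78 to 2.19 with a library left out, passing only without Jag1KO replicate 1. Same-numbered libraries correlated at 0.701, 0.703 and -0.142, and differently numbered ones at -0.785 to 0.572. Whether the numbers pair the samples cannot be told from these values. In Jag1KO + ctrl against Jag1KO (0 calls), DESeq2 gave 13 and leaving out a library 0 to 302. In Jag1KO + rescue against Jag1KO + ctrl (1), limma gave 2 with each pseudocount, DESeq2 1586, no filter 2, the block 3 and leaving out a library 0 to 3659. In siCtrl against siJag1 (2), limma gave 0 with each pseudocount, DESeq2 25, no filter 8, the filter of 5 CPM 0, the block 4 and leaving out a library 0 to 4. The interaction (2) gave 1 with limma, 71 with the block and 0 to 4 with a library left out. MAGEC1, MAGEC2 and ADGRF1 were called with each alternative that kept all libraries, and NPTX1 was lost with RLE factors (FDR 0.0517) and did not pass the filter of 5 CPM. JAG1, NPTX1, MAGEC1, MAGEC2 and ADGRF1 kept their direction in each alternative in which they were tested. The medians of 8 lists changed sign in at least 1 alternative (cytokines, basement membrane, matricellular genes, proteases, hypoxia, EMT, p53 targets and the respiratory chain), with values given beside them. The cause of these changes was not tested. With 3 libraries a group, single libraries decide many calls.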
